A study of Mus musculus with 5 samples.

Results

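The genes described here act in G2 and mitosis: the kinases that drive division, the checkpoint and kinetochore proteins that attach chromosomes to the spindle, the anaphase machinery, spindle proteins and cytokinesis proteins. They were chosen by function from a list of 40 gene symbols that leaves out the kinesin motors other than Cenpe, and a gene was kept where the array annotation gave it a probe. Of the 40 listed genes, 38 had a named probe, out of 19084 genes measured. Ccnb1 and Cdc20 had no named probe and were dropped. The 38 genes were covered by 47 of 21876 named probes, and for a gene with several probes the one with the highest mean was used.

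Transcript levels came from 5 single-colour mouse arrays. The iLC group holds 2 arrays of fibroblasts that, per the labels, had received Dmrt1, Gata4 and Nr5a1, factors of gonadal development, by lentivirus, and that the submitters label induced Leydig-like cells. The Leydig group holds 2 arrays of cells isolated from mice aged 56 days; Leydig cells lie between the tubules of the testis and make androgens. The MEF group is 1 array of fibroblasts transduced with a mock vector. Fibroblasts of the iLC and MEF groups came from embryos of 13.5 days post coitus after removal of the head and visceral tissues. Per the labels' protocols, virus was applied for 12 hours and a medium followed that held IGF (50 ng/ml) and PDGFAA (10 ng/ml). Because all samples carry 1 protocol text, it does not tell which medium the MEF cells had, and the factors and the medium cannot be told apart between iLC and MEF. No strain is named in the labels. The labels do not name separate cultures or animals for the 2 arrays of a group, and the p-values rest on array-to-array spread that may be technical. For the single MEF array the fit took the spread seen in the 2 pairs.

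The labels were compared with the delivered factors and with marker genes. None of the 3 factors was higher in iLC than in MEF. Nr5a1 read 1509 and 1158 on the iLC arrays, 68030 and 44721 on the Leydig arrays and 1265 on the MEF array (iLC minus MEF 0.06, adjusted p = 0.964). Gata4 read 4127 and 3150 on the iLC arrays, 71888 and 50891 on the Leydig arrays and 6773 on the MEF array (-0.91, adjusted p = 0.368), and Dmrt1 read 333 and 427 on the iLC arrays, 549 and 519 on the Leydig arrays and 397 on the MEF array (-0.07, adjusted p = 0.954). A rise of the delivered factors over MEF is thus not seen on the iLC arrays. Whether these probes read the delivered sequences was not tested, so iLC below means the libraries labelled so, in every direction given. Of 7 measured Leydig markers, Hsd3b1 and Fdx1 were called higher in iLC than in MEF, against 0.278% of all genes. These with Nr5a1 and Cyp17a1 were called higher in Leydig cells than in MEF, against 3.34%. Star read 56878 and 73892 in iLC, 1368 and 19703 in Leydig cells and 695 in MEF (iLC minus MEF 6.51, limma adjusted p = 0.107). Cyp17a1 (-0.38) and Hsd17b3 (-0.32) were negative in iLC minus MEF. Cyp11a1 read 510 and 451 on the Leydig arrays and 562 on the MEF array. Insl3, Lhcgr and Hsd3b6 had no named probe.

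Markers of other cell types also moved between the groups. Of 23 measured germ cell markers, 21 and 22 read higher on Leydig replicates 1 and 2 than on the MEF array, and 4 passed (Ldhc, Mael, Zbtb16 and Dazl), against 3.34% of all genes called higher. The median for Leydig minus MEF was 1.47. Without Piwil2, whose probe made up most of the MEF sum, the other 22 summed to 20279 and 20110 intensity units on the iLC arrays, 58238 and 530247 on the Leydig arrays and 18146 on the MEF array. Prm1, a sperm protamine, read 6235 and 141591 on the Leydig arrays and 238 on the MEF array. The 15 measured macrophage markers summed to 55151 and 114996 on the iLC arrays, 29169 and 28971 on the Leydig arrays and 204062 on the MEF array, and all 15 had a negative log2 difference between iLC and MEF. Sertoli cell markers (9 measured) summed to 56240 and 91911 on the iLC arrays, 344592 and 378661 on the Leydig arrays and 30852 on the MEF array. Clu made up most of these sums, at 45638 and 82916 on the iLC arrays, 332720 and 369002 on the Leydig arrays and 23088 on the MEF array. It was the 1 of the 9 called higher in Leydig cells than in MEF, and 3 of the 9 had a negative difference there. Fibroblast markers (11 measured) summed to 1013750 and 851703 on the iLC arrays, 496381 and 318733 on the Leydig arrays and 1609770 on the MEF array. Vim (170193 and 180020) and Pdgfra (180686 and 92654) made up most of the Leydig sums. Of the 11, 6 were called lower in Leydig cells than in MEF and 1, Pdgfra, higher, against 3.97% and 3.34% of all genes. Endothelial markers (7 measured) summed to between 11211 on the MEF array and 22859 on iLC replicate 2. No marker of these lists read 0 or less on any array, and their part in the results below was not tested.

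Entry into mitosis depends on CDK1 bound to A- and B-type cyclins, which PLK1 and the Aurora kinases reinforce. Checkpoint proteins hold back the anaphase-promoting complex until every kinetochore is attached, and destruction of securin then frees separase to split sister chromatids. Transcripts of most of these genes are made in late S phase, G2 and M and are scarce in resting cells, so they are commonly read as marks of dividing cells. Adult Leydig cells rarely divide, whereas early-passage embryonic fibroblasts grow quickly. In RNA from a whole culture, fewer dividing cells and less transcript per cell cannot be told apart.

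The first comparison asked how the mitotic genes stood in factor-transduced fibroblasts against mock-transduced ones. Of the 38 genes, 17 were lower in iLC at an adjusted p under 0.05 (limma, adjusted over all genes) and none was higher, against 0.283% of all genes called lower, 0.278% called higher and 0.561% called in either direction. The median log2 difference over the 38 was -3.23, where that over all genes was -0.11. A log2 difference below -2 was found for 32 of them, against 3.12% of all genes. The mean iLC intensity was 4.13% to 10.9% of the MEF intensity for the 17 called genes. Both iLC arrays lay below the MEF array for 35 of the 38, against 44.4% of all genes. The exceptions were Pttg1, Nuf2 and Mki67, and together with Cep55 they are described apart below. The 17 called genes made up 44.7% of the 38 and 31.5% of the 54 genes called lower in the whole comparison. At an unadjusted p under 0.05, 34 of the 38 were lower and 0 higher, against 10.2% and 5.55% of all genes.

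These calls rest on few arrays. Over all genes 107 passed in the main fit, 9 with a pseudocount of 1, 2 with low ends aligned and 377 with quantile normalization. The counts that follow are of the 38 genes. The number called was 0 without iLC replicate 1, iLC replicate 2, Leydig replicate 1 or Leydig replicate 2, 0 with a pseudocount of 1, 0 with the arrays' low ends aligned and 28 with quantile normalization, while the median difference stayed between -3.29 and -3.16 over 13 alternatives.

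**Figure D1:**
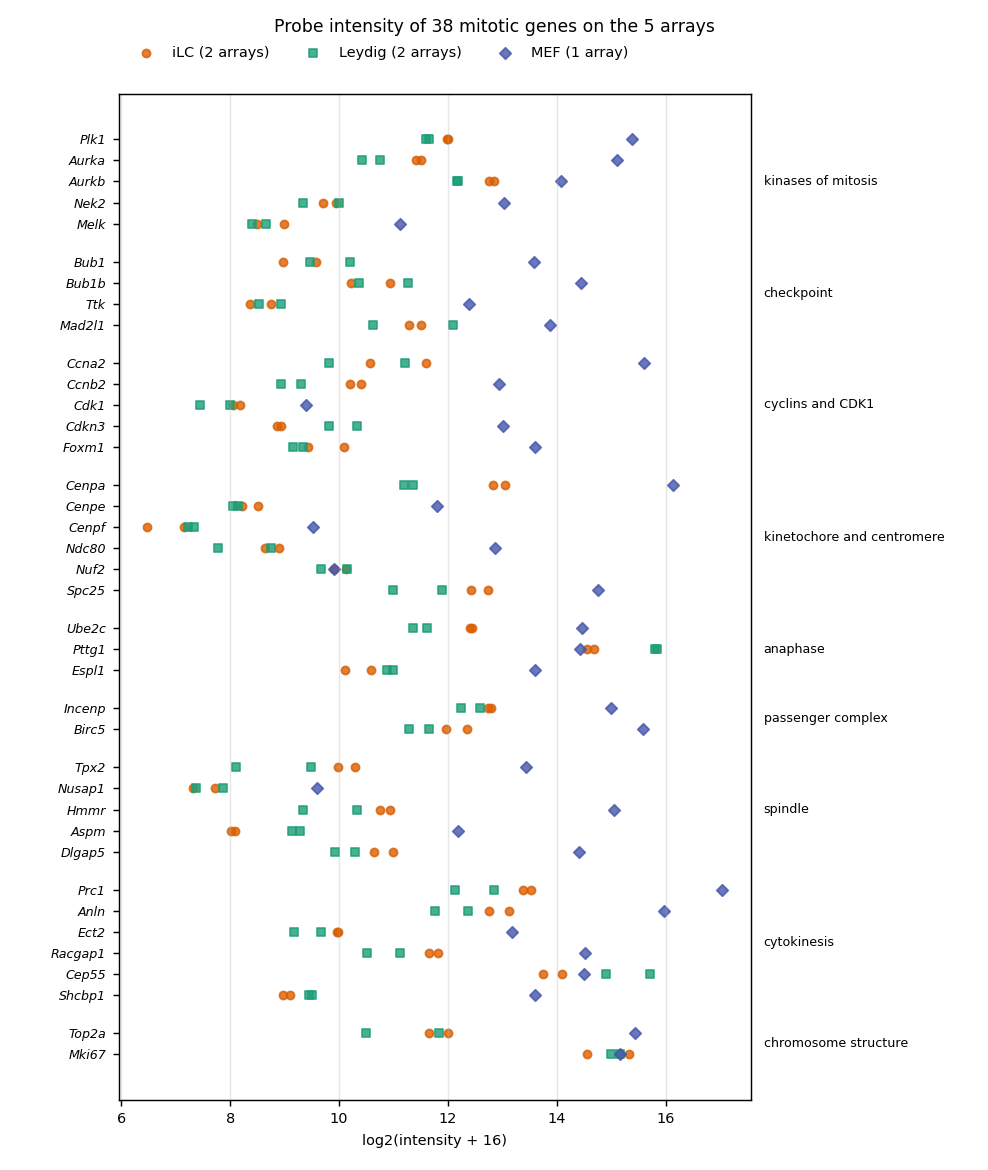
Intensity of the 38 mitotic genes on each array, as log2(intensity + 16), grouped by role. Circles are the 2 iLC arrays, squares the 2 Leydig arrays and diamonds the MEF array. The MEF array was the highest of the 5 for 34 of the 38 genes, against 27% of all genes.

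Among the mitotic kinases, Plk1 and Aurka were called lower. Plk1, the polo-like kinase needed for spindle assembly and mitotic entry, read 4030 and 4094 on the iLC arrays and 42662 on the MEF array, which is -3.39 ± 0.36 as a log2 difference with its SE (adjusted p = 0.033). Aurka, the centrosomal Aurora kinase, read 2701 and 2899 on the iLC arrays and 34925 on the MEF array (-3.63 ± 0.38, adjusted p = 0.033). In both cases the 2 iLC arrays were close together and far below the MEF array. Nek2, a centrosome-splitting kinase, read 815 and 973 in iLC and 8281 in MEF (-3.19, adjusted p = 0.0512). Melk, a kinase abundant in proliferating cells, differed by -2.38 (adjusted p = 0.0742). Aurkb, the Aurora kinase of the chromosomal passenger complex, had a much smaller difference than Aurka: it read 7296 and 6900 in iLC and 17301 in MEF (-1.28, adjusted p = 0.183), 41.0% of the MEF intensity.

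Of the checkpoint genes, Bub1 and Ttk were called lower. Bub1, a kinetochore kinase of the checkpoint, read 745 and 486 on the iLC arrays and 12237 on the MEF array (-4.31 ± 0.49, adjusted p = 0.0334). Ttk, the MPS1 kinase that starts checkpoint signalling, read 313 and 416 in iLC and 5321 in MEF (-3.82 ± 0.41, adjusted p = 0.033). For both the iLC readings lay far below the MEF one. Bub1b, which encodes BUBR1 of the mitotic checkpoint complex, read 1943 and 1169 in iLC and 22332 in MEF without passing (-3.87, adjusted p = 0.0519). Mad2l1, the MAD2 protein that sequesters CDC20, differed by -2.48 (adjusted p = 0.151), and its Leydig arrays were far apart, at 4332 and 1552.

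Cdkn3 and Foxm1 were called lower among the CDK1 group. Cdkn3, a phosphatase that acts on CDKs, read 448 and 471 on the iLC arrays and 8238 on the MEF array (-4.12 ± 0.41, adjusted p = 0.0281). Foxm1, the transcription factor that drives many G2 and M genes, read 1073 and 675 in iLC and 12288 in MEF (-3.83 ± 0.43, adjusted p = 0.0334). Ccna2, cyclin A2, had one of the widest gaps of all, at 3063 and 1503 in iLC and 49508 in MEF, with the largest SE of the 38 (-4.52 ± 0.70, adjusted p = 0.0622). Ccnb2, cyclin B2, read 1158 and 1341 in iLC and 7802 in MEF (-2.63, adjusted p = 0.0601). Cdk1 itself was read by a dim probe, at 272 and 251 in iLC and 654 in MEF (-1.27, adjusted p = 0.227).

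Kinetochore and centromere genes divided into 3 called lower and 3 not. Cenpa, the histone H3 variant that marks centromeres, read 7237 and 8392 in iLC and 71823 in MEF (-3.20 ± 0.38, adjusted p = 0.0375). Cenpe, the kinetochore motor that brings chromosomes to the spindle equator, read 350 and 282 in iLC and 3547 in MEF (-3.43 ± 0.38, adjusted p = 0.0334). Ndc80, the microtubule-binding subunit of the outer kinetochore, read 460 and 382 in iLC and 7400 in MEF (-4.09 ± 0.51, adjusted p = 0.0396). Its complex partners did not show the same size of difference. Spc25 read 5502 and 6748 in iLC and 27722 in MEF (-2.18, adjusted p = 0.117), and Nuf2 read 941 and 1100 in iLC and 943 in MEF (0.11, adjusted p = 0.93). Cenpf, a large protein of the kinetochore corona, differed by -2.70 (adjusted p = 0.0657) with both iLC readings at 127 or less.

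Espl1 was the called gene of the anaphase group, and Birc5 that of the passenger complex. Espl1, the protease separase, read 1086 and 1524 in iLC and 12378 in MEF (-3.25 ± 0.40, adjusted p = 0.0396). Ube2c, the ubiquitin-conjugating enzyme of the anaphase-promoting complex, read 5411 and 5525 in iLC and 22494 in MEF (-2.04, adjusted p = 0.0849). Birc5, or survivin, read 5192 and 3951 in iLC and 48682 in MEF (-3.42 ± 0.41, adjusted p = 0.0388), while Incenp, the scaffold of the same complex, kept 21.4% of the MEF intensity (-2.22, adjusted p = 0.0742).

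Hmmr, Aspm and Dlgap5 were called lower among the spindle genes. Hmmr, a spindle-associated hyaluronan receptor, read 1941 and 1702 in iLC and 33610 in MEF (-4.20 ± 0.51, adjusted p = 0.0388). Aspm, a spindle pole protein, read 244 and 255 in iLC and 4634 in MEF (-4.13 ± 0.37, adjusted p = 0.0281). Dlgap5, the kinetochore fibre protein HURP, read 2013 and 1585 in iLC and 21741 in MEF (-3.59 ± 0.40, adjusted p = 0.0334). The iLC pairs of all 3 were tight beside the gap to MEF. Tpx2, the activator of Aurora A, differed by -3.29 (adjusted p = 0.0849) and Nusap1, a microtubule-bundling protein, by -2.08 (adjusted p = 0.0992).

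In cytokinesis, Shcbp1, Prc1 and Ect2 were called lower. Shcbp1, a midbody protein, had the largest difference of the 38 genes, with 483 and 534 on the iLC arrays and 12318 on the MEF array (-4.56 ± 0.37, adjusted p = 0.0277). Prc1, the bundler of the central spindle, read 10605 and 11770 in iLC and 133893 in MEF (-3.58 ± 0.44, adjusted p = 0.0396). Ect2, the exchange factor that activates RhoA at the cleavage plane, read 997 and 977 in iLC and 9252 in MEF (-3.21 ± 0.40, adjusted p = 0.0396). None of the 3 had an iLC reading near that of MEF. Anln, the anillin scaffold of the contractile ring, differed by -3.03 (adjusted p = 0.0557) and Racgap1, the centralspindlin subunit, by -2.78 (adjusted p = 0.0607). Cep55, which recruits the abscission machinery to the midbody, stood apart from them: it read 13641 and 17458 in iLC and 23078 in MEF (-0.58 ± 0.48, adjusted p = 0.622). Top2a, the topoisomerase that untangles chromosomes, read 4061 and 3202 in iLC and 44045 in MEF (-3.60, adjusted p = 0.0706).

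**Figure D2:**
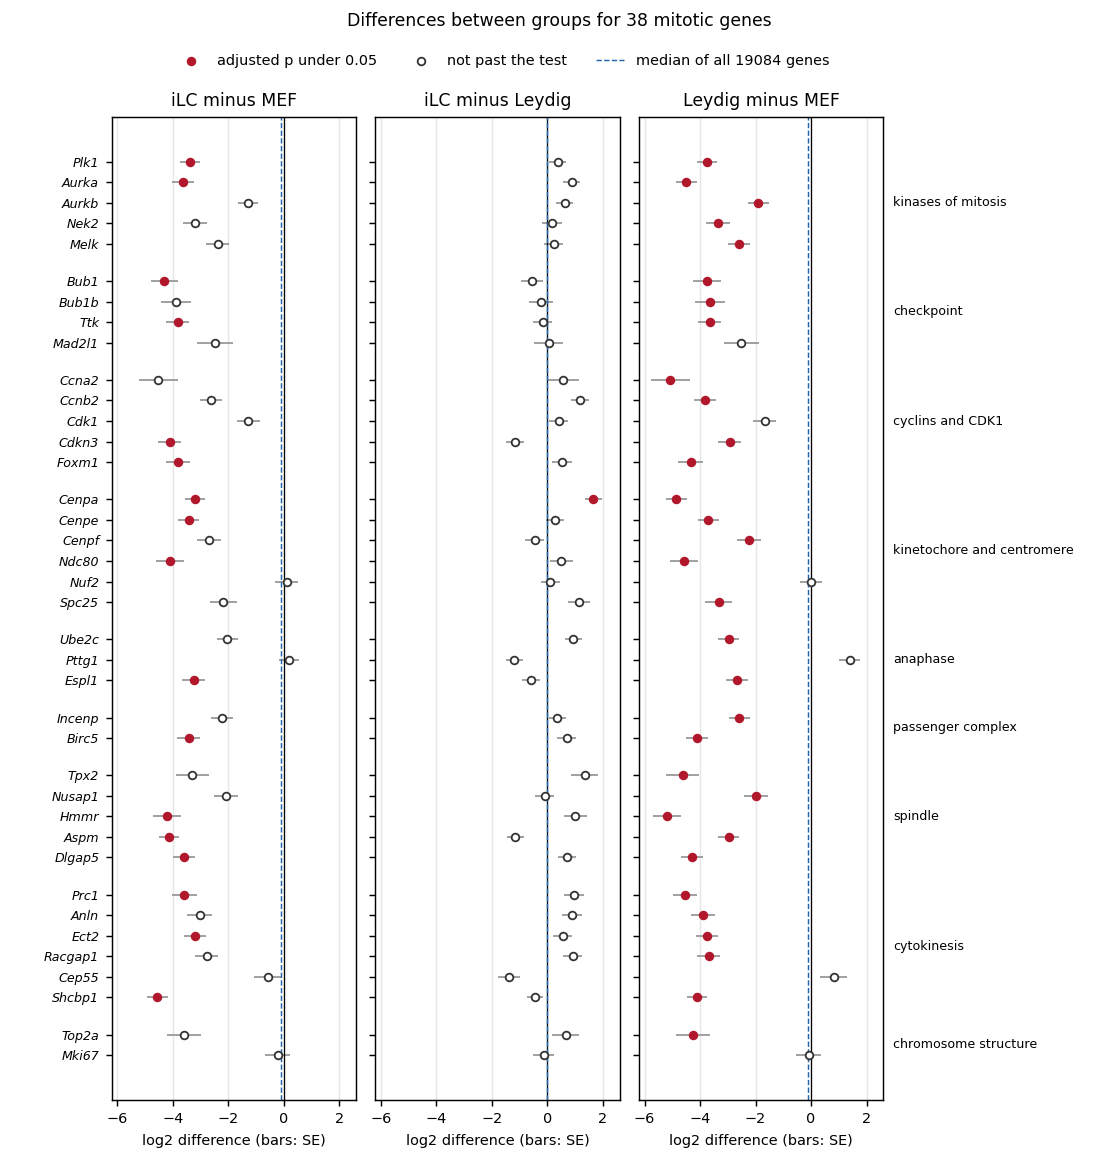
Log2 differences (points) with standard errors (bars) of the 38 mitotic genes for iLC minus MEF, iLC minus Leydig and Leydig minus MEF, grouped by role; filled points passed the limma test and the dashed line is the median of all genes. In the left panel 17 points are filled and in the right panel 32, all left of 0, whereas in the middle panel 1 is filled.

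Many promoters of G2 and M genes carry a cell cycle homology region (CHR), bound by the MuvB complexes that repress these genes in resting cells and activate them in G2, beside CCAAT boxes, bound by NF-Y. RefSeq promoter windows (build GRCm38.p6, 250 bases before to 50 after the gene start) were matched by symbol for 31 of the 38 genes, and searched on both strands for TTTGAA or TTCGAA, as the CHR, and for CCAAT. A CHR on the opposite strand reads as TTCAAA, since the second form is its own reverse complement, and a CCAAT box there reads as ATTGG. No CHR form contains a CCAAT form. A CHR match was found in 23 of the 31 genes (74.2%), against 21.7% of 27025 genes with a window. CCAAT was found in 22 of 31 (71.0%), against 41.1% of all. Both stood in the same window in 20 of 31 (64.5%), against 8.61% of all. Of the 14 genes called lower in iLC that had a window, 11 held both (78.6%), as did 9 of the 17 not called (52.9%). A match is a description of the letters, not of binding, and the share of genes holding both was not tested between these subsets.

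The stretches below run from 100 bases before to 30 after the gene start, 5′ to 3′ on the gene's strand, with CHR and CCAAT matches on either strand in capitals. The first 6 genes were called lower in iLC and show the arrangement. Nuf2 and Pttg1, which did not differ between iLC and MEF beyond the test, have neither motif in this stretch. Among genes with a window, it held a CHR in 8 of 14 called (57.1%) and 10 of 17 not called (58.8%), against 8.85% of all. Both motifs stood in it for 8 of the 14 called (57.1%) and 7 of the 17 not called (41.2%), against 1.98% of all. Hmmr lies at chr11:40733408-40733537 on the minus strand, Aspm at chr1:139454673-139454802 on the plus strand, Cenpa at chr5:30666786-30666915 on the plus strand, Ttk at chr9:83834589-83834718 on the plus strand, Bub1 at chr2:127831830-127831959 on the minus strand, Espl1 at chr15:102296193-102296322 on the plus strand, Nuf2 at chr1:169531435-169531564 on the minus strand and Pttg1 at chr11:43425952-43426081 on the minus strand.
Hmmr: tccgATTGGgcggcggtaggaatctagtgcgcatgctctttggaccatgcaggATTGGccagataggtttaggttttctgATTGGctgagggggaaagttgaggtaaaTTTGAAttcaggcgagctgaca
Aspm: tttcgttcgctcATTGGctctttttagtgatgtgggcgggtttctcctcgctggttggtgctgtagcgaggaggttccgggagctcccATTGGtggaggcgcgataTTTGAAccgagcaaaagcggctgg
Cenpa: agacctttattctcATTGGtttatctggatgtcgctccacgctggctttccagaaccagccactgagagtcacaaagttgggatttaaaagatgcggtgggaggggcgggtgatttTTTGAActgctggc
Ttk: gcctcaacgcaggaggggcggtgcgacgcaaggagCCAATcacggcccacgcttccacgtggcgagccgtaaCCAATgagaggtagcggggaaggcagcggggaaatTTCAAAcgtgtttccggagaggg
Bub1: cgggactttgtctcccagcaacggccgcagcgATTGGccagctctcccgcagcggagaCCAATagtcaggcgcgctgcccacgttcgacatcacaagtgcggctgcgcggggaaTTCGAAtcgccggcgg
Espl1: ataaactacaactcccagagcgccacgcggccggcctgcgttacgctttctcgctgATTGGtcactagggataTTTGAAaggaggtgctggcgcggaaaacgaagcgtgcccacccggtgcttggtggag
Nuf2: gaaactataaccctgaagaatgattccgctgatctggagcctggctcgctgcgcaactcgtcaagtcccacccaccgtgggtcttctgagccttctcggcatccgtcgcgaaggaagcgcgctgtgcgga
Pttg1: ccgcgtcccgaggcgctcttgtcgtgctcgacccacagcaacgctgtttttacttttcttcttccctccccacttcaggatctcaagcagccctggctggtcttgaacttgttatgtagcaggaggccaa

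In Hmmr, Aspm, Cenpa, Ttk and Bub1 the CHR letters began 9, 7, 17, 8 and 15 bases into the transcript, and in Espl1 27 bases before it. In each of the 6 a CCAAT box stood upstream of the CHR. Of the 31 genes, 6 had neither motif in their 300 bases: Birc5, which was called lower, and Nuf2, Pttg1, Nusap1, Melk and Mad2l1, which were not.

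Mki67, the proliferation antigen Ki-67 that coats mitotic chromosomes, gave differences from MEF of unlike size on its 2 probes. The brighter probe is the one used above. It read 40932 and 23934 on the iLC arrays, 32574 and 36300 on the Leydig arrays and 36627 on the MEF array. The iLC readings spanned those of the other groups (iLC minus MEF -0.23, limma adjusted p = 0.858). The dimmer probe read 414 and 409 on the iLC arrays, 513 and 388 on the Leydig arrays and 8703 on the MEF array. When every named probe was tested on its own, an alternative added after the data were seen, that probe differed by -4.35 between iLC and MEF (adjusted p = 0.0303) and by -4.24 in Leydig minus MEF (adjusted p = 0.00464). The dimmer probe therefore read like the called genes and the brighter one did not. The part of the transcript each probe covers was not examined here.

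Birc5 had 3 probes, which disagreed as well. The brightest is given above; the third read 165 and 230 in iLC and 1048 in MEF (-2.33, adjusted p = 0.119), while the second gave 534 and 588 on the iLC arrays, 1359 and 1402 on the Leydig arrays and 877 on the MEF array (iLC minus MEF -0.63, adjusted p = 0.46). On the second probe iLC was lower than Leydig cells (-1.28, adjusted p = 0.046), the opposite of the brightest. The other genes with 2 probes gave the same direction between iLC and MEF on both, Pttg1 excepted. Bub1's second probe differed by -2.94, that of Ttk by -3.25, that of Racgap1 by -2.67, that of Tpx2 by -3.06 and that of Dlgap5, which read 284 or less on every array, by -1.69. With every probe tested, 18 of the 38 genes had at least 1 probe called lower between iLC and MEF. Of all 21876 named probes, 62 were called lower.

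**Figure D3:**
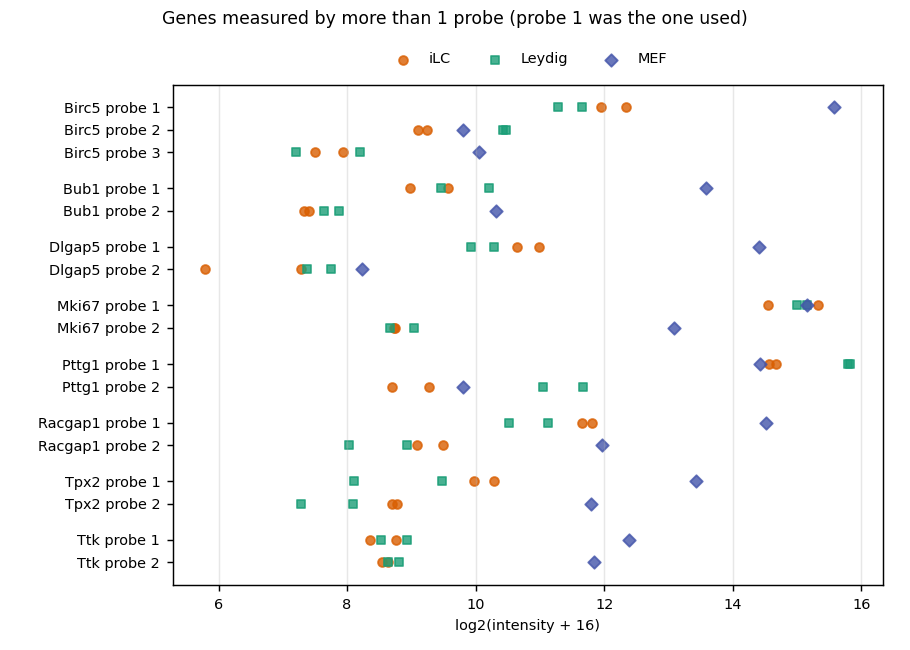
Log2(intensity + 16) of each probe of the 8 genes with more than 1 probe; circles are iLC, squares Leydig and diamonds MEF arrays. On the first Mki67 probe the iLC arrays span the Leydig and MEF arrays, and on the second the MEF array lies far to the right of the other 4.

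Pttg1 and Cep55 were the 2 genes with both Leydig arrays above MEF. Pttg1, the securin that holds separase inactive until anaphase, read 26135 and 24114 on the iLC arrays, 56818 and 58249 on the Leydig arrays and 21990 on the MEF array. Its levels were highest in Leydig cells, with iLC and MEF close together (iLC minus MEF 0.19 ± 0.37, adjusted p = 0.85; Leydig minus MEF 1.39 ± 0.37, adjusted p = 0.0844). The difference between iLC and Leydig cells was -1.20 ± 0.30 (adjusted p = 0.055), and its second probe, at 401 and 606 on iLC arrays, 2112 and 3233 on Leydig arrays and 878 on the MEF array, differed by -2.37 (adjusted p = 0.0135). Cep55 also read highest on the Leydig arrays, at 53617 and 30504, with iLC minus Leydig at -1.39 ± 0.39 (adjusted p = 0.0751) and Leydig minus MEF at 0.81 ± 0.48 (adjusted p = 0.434). In mouse testis CEP55 is also known from the bridges between germ cells. Most germ cell markers also had higher readings in Leydig cells than in MEF, as given above, and their part in the Cep55 and Pttg1 values was not tested.

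The second comparison set iLC against Leydig cells, the cells they are named for. Differences here were small beside those from MEF: 1 of the 38 genes was higher in iLC, none was lower, and the backgrounds were 5.72% and 5.65% of all genes (11.4% in either direction). The median difference was 0.39, where that over all genes was -0.03, and the values ran from -1.39 to 1.34 among the 37 genes not called. No member had a log2 difference under -2, against 4.78% of all genes. At an unadjusted p under 0.05, 9 members were higher and 4 lower, against 12.2% and 14.7% of all genes.

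The called gene was Cenpa, with 7237 and 8392 on iLC arrays against 2604 and 2314 on Leydig arrays (1.66 ± 0.31, adjusted p = 0.0213). Its call was lost without any 1 of the 4 arrays. Next by size were Tpx2, at 1238 and 994 in iLC against 696 and 261 in Leydig cells (1.34 ± 0.50, adjusted p = 0.148), Ccnb2, at 1158 and 1341 against 612 and 474 (1.19 ± 0.32, adjusted p = 0.068), and Spc25, at 5502 and 6748 against 3755 and 2027 (1.14 ± 0.40, adjusted p = 0.131). Both iLC arrays stood above both Leydig arrays for all of these. The same held for 19 of the 38 genes, against 28.9% of all genes, among them Plk1, Aurka, Aurkb, Foxm1, Birc5, Hmmr, Prc1, Anln, Ect2 and Racgap1.

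Both iLC arrays stood below both Leydig arrays for 7 genes, against 29.0% of all genes: Pttg1, Cep55, Cdkn3, Aspm, Espl1, Shcbp1 and Cenpf. Cdkn3 stood at 448 and 471 in iLC, against 880 and 1274 in Leydig cells (-1.18 ± 0.33, adjusted p = 0.0769). Aspm stood at 244 and 255 in iLC, against 543 and 610 in Leydig cells (-1.15 ± 0.30, adjusted p = 0.0622). Aspm, Cdkn3 and Shcbp1 were thus among the genes furthest below MEF in iLC while reading lower still than in Leydig cells, though none of the 3 passed this test. The other 12 genes overlapped between the groups, including all 4 checkpoint genes. Median differences by role ran from -0.59 for the 3 anaphase genes and -0.20 for the 4 checkpoint genes to 0.71 for the 5 spindle and 0.71 for the 6 cytokinesis genes.

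The third comparison, of Leydig cells with MEF, gave the level that adult cells of this kind reached on the same probes. It shares the MEF array with the first. Of the 38 genes, 32 were lower in Leydig cells and none was higher, against 3.97% and 3.34% of all genes (7.3% in either direction). At an unadjusted p under 0.05, 34 were lower and 1 was higher, against 10.7% and 9.14% of all genes. A log2 difference below -2 was found for 31, against 4.36% of all genes. Both Leydig arrays lay below the MEF array for 35 genes, against 44.1% of all, and above it for Pttg1 and Cep55, against 32.9% of all. The median difference was -3.67, where that over all genes was -0.10. The number called was 3 without Leydig replicate 2, with a median of -3.38, and 26 without Leydig replicate 1, with a median of -3.82.

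Hmmr had the largest difference, at 1269 and 631 on the Leydig arrays and 33610 on the MEF array (-5.20 ± 0.51, adjusted p = 0.00494). Ccna2, not called between iLC and MEF, read 2366 and 884 in Leydig cells and 49508 in MEF (-5.08 ± 0.70, adjusted p = 0.0122). Cenpa read 2604 and 2314 in Leydig cells and 71823 in MEF (-4.86 ± 0.38, adjusted p = 0.00297). The Leydig readings of these genes were 2.83% to 3.42% of the MEF ones. Tpx2 (-4.63), Ndc80 (-4.59), Prc1 (-4.54), Aurka (-4.50), Foxm1 (-4.35), Dlgap5 (-4.30) and Top2a (-4.26) followed, all called. Aurkb read 4592 and 4651 in Leydig cells and 17301 in MEF (-1.90 ± 0.37, adjusted p = 0.0317), the smallest difference among those called. The 6 not called were Mad2l1 (-2.52), Cdk1 (-1.67), Mki67 (-0.09), Nuf2 (0.00), Cep55 (0.81) and Pttg1 (1.39).

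The Leydig arrays were not alike for these genes. Replicate 1 read above replicate 2 for 31 of the 38 (81.6%), against 54.7% of all genes, with a median difference of 0.39 on the log2 scale. Between the iLC arrays, replicate 1 was the higher for 17 of 38 (44.7%), against 37.7% of all genes. The widest gap was in Mad2l1 (4332 and 1552), then Ccna2 (2366 and 884) and Tpx2 (696 and 261). Replicate 2, with the lower mitotic readings, is the array with the higher germ cell sum, whose part was not tested. Root mean square standard deviations within pairs were 0.27 for the mitotic genes in iLC and 0.47 in Leydig cells, on the log2 scale. Over all genes they were 0.46 and 0.55, so the mitotic genes spread less than genes at large in both groups.

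Other genes of division were taken from lists chosen for their roles, and their counts of lower genes in iLC stand against the 0.283% of all genes called lower. Of 11 measured mitotic kinesins, 6 were lower in iLC than in MEF (median -3.00), with Kif20b at -4.55, Kif23 at -4.46, Kif15 at -3.88 and Kif2c at -3.72. Of 34 other kinetochore and centromere genes, 4 were lower (median -1.75): Knl1, the platform for checkpoint proteins (-3.94), Ska1 (-3.38) and Ska3 (-2.96) of the microtubule-coupling Ska complex, and Spdl1, a dynein adaptor (-3.04). Of 31 other spindle and cytokinesis genes, 4 were lower (median -1.86), namely Spag5 (-3.65), Sass6 (-3.24), Troap (-3.12) and Cdca2 (-2.93). Fbxo5, the EMI1 inhibitor of the anaphase-promoting complex (-3.70), and Pbk, a mitotic kinase (-3.13), were the called ones of 15 genes of CDK1 and FOXM1 control (median -1.51). Esco2, a cohesin acetyltransferase (-4.04), was the called one of 17 condensin and cohesin genes (median -1.30). No gene of these 5 lists was called higher.

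Genes of DNA replication had a smaller median. Of 44 measured, 0 passed between iLC and MEF by limma; 33 were lower at an unadjusted p under 0.05, against 10.2% of all genes, and 43 had a negative difference (median -1.69), as had 10705 of all 19084 genes. Uhrf1, which couples DNA methylation to replication, differed most (-4.37, adjusted p = 0.0657). In Leydig minus MEF 8 of the 44 were lower (median -1.32), against 3.97% of all genes, with Ccne1 (-3.94) and Rrm2 (-3.89) first. Whether the lists differ from each other was not tested.

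Subunits and partners of the anaphase-promoting complex, which Ube2c serves, had medians near those of all genes. Of 15 measured, 0 passed in each of the 3 comparisons by limma, where 0.561%, 11.4% and 7.3% of all genes passed, so that a list of this size could hold few calls. At an unadjusted p under 0.05, 1 was lower in iLC than in MEF, 1 was lower against Leydig cells, and Leydig cells had 1 lower and 1 higher than MEF; the lower shares over all genes were 10.2%, 14.7% and 10.7%, and the higher share in Leydig minus MEF 9.14%. The medians were -0.07 for iLC minus MEF, -0.01 for iLC minus Leydig and -0.22 for Leydig minus MEF. Ube2s, its chain-elongating enzyme, had the largest difference in iLC against MEF (-0.99, adjusted p = 0.277).

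**Figure D4:**
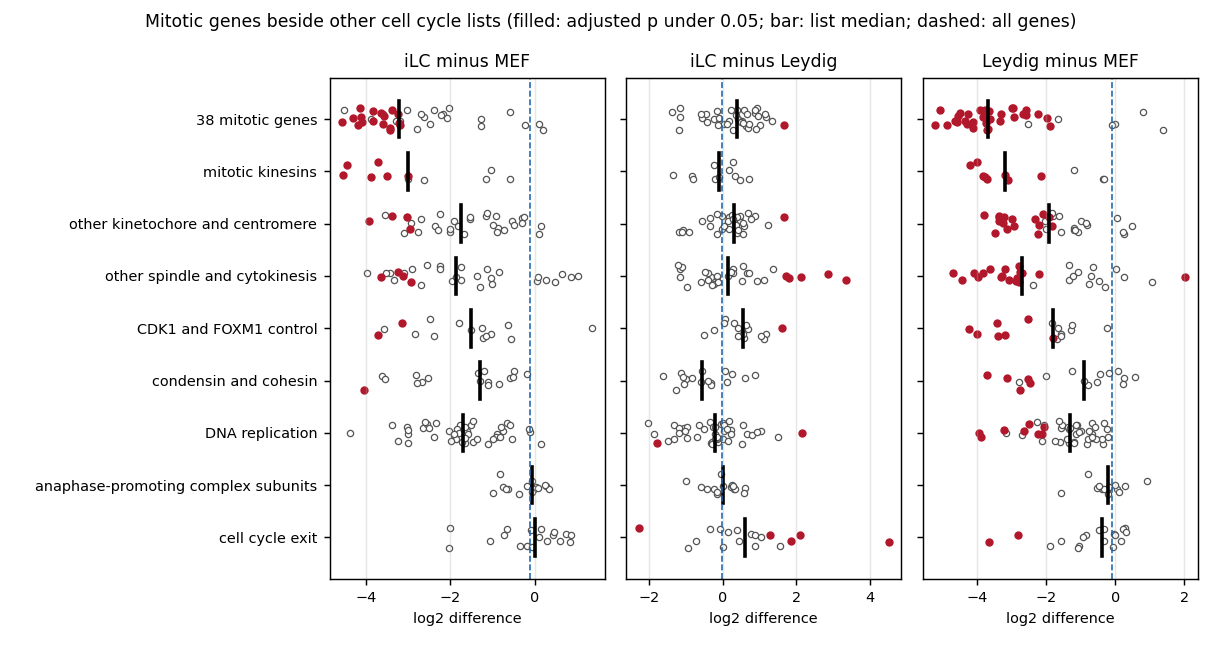
Log2 differences of the 38 mitotic genes and of 8 other cell cycle lists in the 3 comparisons; each point is a gene, filled where it passed the limma test, the bar is the list's median and the dashed line the median of all genes. In the left panel the mitotic genes and kinesins have medians of -3.23 and -3.00, and the anaphase-promoting complex list lies around 0.

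Inhibitors of the cell cycle and genes of cell cycle exit gave 0 calls of 18 between iLC and MEF by limma (3 lower at an unadjusted p under 0.05, against 10.2% of all genes, median 0.01). Rbl1, the p107 pocket protein, differed most (-2.04, adjusted p = 0.0889). Against Leydig cells, 4 of the 18 were higher in iLC and 1 lower, against 5.72% and 5.65% of all genes. Cdkn2b, an inhibitor of the G1 kinases, had 46882 and 43047 on iLC arrays, 2437 and 1582 on Leydig arrays and 25188 on the MEF array (iLC minus Leydig 4.50, adjusted p = 0.00152). Cdkn1a, an inhibitor induced by p53, had 276015 and 232311 on iLC arrays, 52713 and 91945 on Leydig arrays and 207620 on the MEF array (iLC minus Leydig 1.86, adjusted p = 0.0297). Both inhibitors thus read higher on each iLC array than on either Leydig array, and neither passed between iLC and MEF. Cdkn1c was higher in iLC than in Leydig cells too (2.09), and Cdkn2c lower (-2.28, adjusted p = 0.00814).

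Between iLC and Leydig cells, 7 genes of the other kinetochore, spindle and CDK1 lists passed, all higher in iLC. Psrc1, a spindle protein and p53 target, was higher in iLC by 3.35 (adjusted p = 0.00223), Haus8, a subunit of the augmin complex that branches spindle microtubules, by 2.86 (adjusted p = 0.00357), Arhgap11a by 2.13, Gtse1 by 1.80 and Haus2, also of augmin, by 1.72. Lin52, a MuvB subunit, was higher by 1.61. Mis18a, which helps load CENPA onto centromeres, was higher by 1.67 (adjusted p = 0.0305). In all, 5 of 31 spindle and cytokinesis genes and 1 of 34 kinetochore genes were higher and none of either list was lower, against backgrounds of 5.72% and 5.65%.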

How the data were processed

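RNA from the 5 samples was amplified and hybridised to 1 Cy5-labelled array each, per the labels. The authors deposited linear intensity values, 1 per probe; their background correction, normalization and software were not stated in the labels. Detection calls were not used, so no reading could be set against background, and the number of arrays limits the precision. The 1st percentile was -10.1 and 23.7 in iLC and 83.8 in MEF; aligning these low ends was 1 alternative. Probes were named through the platform annotation, and each of 19084 genes was represented by the probe with the highest mean log2 value. Values under 0 were set to 0 and 16 was added before log2, which draws differences of dim genes toward 0. The unlike low ends also bear on dim genes, so their differences may be understated or overstated, which was not tested. With a floor at each array's 20th percentile, the dim gene Cenpf moved from -2.70 to -1.24 in iLC minus MEF. That was the largest shift there outside averaged probes and left-out arrays. limma 3.58.1 (R 4.3.3; lmFit, eBayes) fitted 1 mean per group over all 5 arrays, with 2 residual and 4.21 prior degrees of freedom. Tests were two-sided, Benjamini-Hochberg adjusted over all genes, with a threshold of 0.05. The fit was tested on simulated data.

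The members, role groups, gene lists, motifs and alternatives were chosen with earlier results of these data known. Values on each array are given for called members, those with the largest differences and those nearest 0. From other lists up to 4 called genes, or the 1 with the largest difference, are named; other names, the delivered factors, the germ cell sums without Piwil2 and the printed promoters were picked with values in view. The labels do not pair same-numbered iLC and Leydig arrays, whose deviations from group means correlated at 0.06 across genes.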

Additional observations from a re-analysis of the deposited data

How the results depend on the processing

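Of the 17 members called between iLC and MEF, 0 passed with a pseudocount of 1 or with the low ends aligned, where 9 and 2 of all genes did. With a pseudocount of 64, 28 members and 290 of all genes passed, against 17 and 107 in the main fit. A floor at each array's 20th percentile gave 27 and 322. Median centring gave 28 and 339, and quantile normalization 28 and 377. Leaving out any 1 of the 4 iLC and Leydig arrays, which takes 1 of the 2 residual degrees of freedom, gave 0 to 0 members (0 of all genes, 2132 to 2886 at an unadjusted p under 0.05). Median centring called 209 of all genes lower and 130 higher, and quantile normalization and aligned low ends put the median of all genes at 0.05 and 0.12, against -0.11. Between iLC and Leydig cells, Cenpa was the 1 member called, beside 2170 of all genes. A pseudocount of 64 gave 2 members and 2522 genes, the intensity filter 3 and 2310 (of 15267), and the floor 4 and 2383. Quantile normalization gave 2 and 2663, probes of a gene averaged 2 and 2231, and a variance trend 2 and 2515. With every probe tested, 3 members had a call, beside 2489 of 21876 probes. No pairing is given by the labels. The replicate block over the 4 iLC and Leydig arrays gave 3 members (1 lower, 2 higher) and 3440 of all genes. Leaving out an array gave 0 to 0 there, with medians of 0.16 to 0.61. Between Leydig cells and MEF, leaving out an array gave 3 to 30 members and medians of -3.82 to -3.38, and averaged probes a median of -3.33. Signs turned only in differences with a main adjusted p of 0.235 or more. For iLC minus MEF, Pttg1 was -0.31 with probes averaged, and without single arrays Nuf2 ran from -0.0033 to 0.22 and Mki67 from -0.61 to 0.16. For iLC minus Leydig, Cdk1 was -0.10 with the floor, Birc5 -0.19 and Dlgap5 -0.16 with probes averaged, and Nusap1 0.052 with quantile normalization and 0.088 with low ends aligned; without single arrays Nek2 ran from -0.18 to 0.48, Melk -0.025 to 0.46, Bub1b -0.69 to 0.22, Ttk -0.37 to 0.027, Mad2l1 -0.69 to 0.78, Ccna2 -0.14 to 1.27, Nuf2 -0.14 to 0.35, Nusap1 -0.35 to 0.15, Top2a -0.0096 to 1.33 and Mki67 -0.52 to 0.25. For Leydig minus MEF, Nuf2 was -8.01e-05 with a pseudocount of 1, -0.042 with median centring, -0.043 with quantile normalization and ran from -0.24 to 0.25 without single arrays. The cause of these shifts was not tested.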
